A study of Mus musculus with 8 samples.

Results

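Schwann cell and glial genes were examined in sorted cells of the newborn mouse inner ear: Fabp7, Mbp, Pmp22, Erbb3, S100b, Egr2 and Gfap. They were picked by symbol from a table of 15275 genes, and all 7 were found in it. These members and the gene lists used below were chosen with earlier results of these data known. The shares of all genes given beside their counts are therefore a description and not independent support. The table holds 8 mRNA-seq libraries, 1 for every combination of organ (cochlea or vestibular organs) and sorted fraction (neurons, epithelial cells, mesenchyme or vascular endothelium). Cells came from dissociated inner ears of ICR mice at postnatal day 0 and were separated by flow cytometry with antibodies against CD326, CD49f and CD34. ICR is an outbred strain, and neither a transgene nor a treatment was named for any group. Which antibody combination defined each cell type, and how many animals were pooled, is not given in the labels. All 8 libraries carry the same age and strain, so groups differ by organ and sorted cell type. The question was how these genes differ between the neuron fraction and the other fractions, and between the cochlear and the vestibular neuron fraction.

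Schwann cells are the glia of peripheral nerves. They arise from the neural crest, depend on neuregulin signals from axons that they receive through the ErbB2 and ErbB3 receptors, and either wrap axons in compact myelin or ensheath bundles of thin ones. In the inner ear they lie along the fibers of the spiral and vestibular ganglia, whose cell bodies are surrounded by satellite glia. Egr2, also called Krox20, is the transcription factor that switches on the myelin program, Mbp and Pmp22 encode proteins of compact myelin, and Fabp7 encodes a fatty acid binding protein of immature glia. S100b and Gfap encode a calcium binding protein and an intermediate filament protein that are used as markers of glia in several organs.

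Values are the authors' signal per gene, which had been scaled so that the sorted values were identical in all 8 libraries, with a lowest value of 20 and a median of 374.4. The depth of each library is therefore unknown. Whether the values were divided by gene length is not stated, so different genes are not compared with each other. Levels are compared across libraries, for 1 gene or for the summed values of a marker list. Such a sum can be dominated by its highest genes. Cochlear and vestibular libraries had a Spearman correlation over all genes of 0.9595 for epithelial cells, 0.9646 for mesenchyme and 0.9222 for neurons. It was 0.877 for vascular endothelium, and the vestibular endothelial library was closer to vestibular neurons, at 0.8875. The sum of 15 endothelial markers fell from 337420 in the cochlear to 171110 in the vestibular endothelial library. The label of the neuron fraction was checked with 21 neuronal markers. None was called higher in neurons than in the other cell types (limma, adjusted p under 0.05), 4 were higher at an unadjusted p under 0.05 (10.1% of all genes were), and their median log2 difference was 1.03. In the cochlear neuron library 12 of the 21 had their highest value among the cochlear libraries and 1 was at the lowest value. For the vestibular neuron library these counts were 5 and 6, with the neurofilament gene Nefh among those at 20. Below, neurons means this sorted fraction as labeled. Which of the cells in it carried a gene was not tested. In a bulk library, fewer cells of a type and less RNA per cell cannot be told apart.

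Of the 7 genes, 5 had both neuron libraries above all 6 other libraries: Fabp7, Mbp, Pmp22, Erbb3 and Egr2. This pattern was found for 6.4% of all genes. Asked within each organ, the same 5 genes had their highest value in neurons in both organs, as did 9.64% of all genes. S100b was highest in mesenchyme in both organs, and Gfap was at or near the lowest value everywhere. The label of glial genes therefore described the neuron fraction for 5 of the 7 genes and not for S100b or Gfap.

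**Figure D1:**
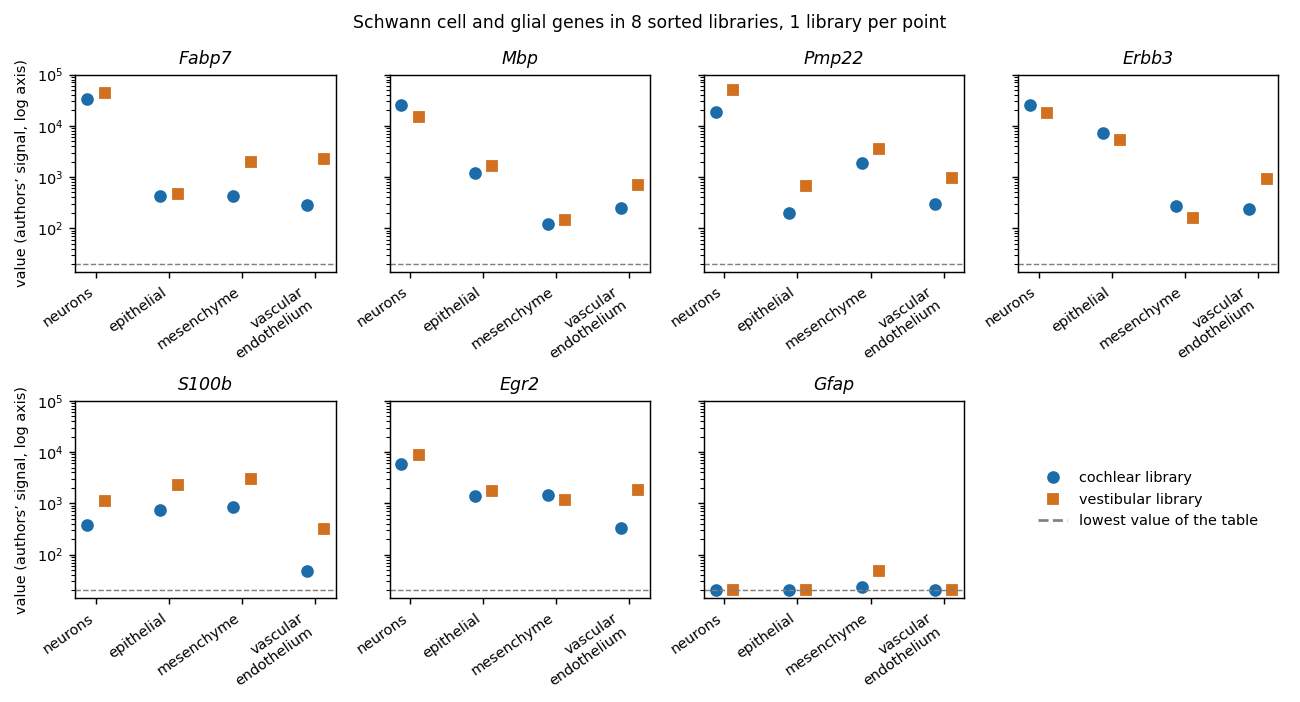
Values of the 7 genes in each sorted library (authors' signal, log axis), with 1 point per library, circles for the cochlea and squares for the vestibular organs, and a dashed line at the lowest value of 20. The neuron points of Fabp7, Mbp, Pmp22, Erbb3 and Egr2 lie above every other point of their panel, while S100b is highest in mesenchyme and Gfap rises above 20 in mesenchyme alone.

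Among regulators, Egr2 lies on chromosome 10 (chr10:67535475-67542188, plus strand, GRCm38). In the cochlea its value was 5985.5 in neurons, 1412.9 in epithelial cells, 1451.6 in mesenchyme and 337.6 in vascular endothelium. In the vestibular organs the values were 8641.6, 1779.3, 1152.5 and 1851.3, in the same order of cell types. Neurons stood 4.12 times above the next highest library in the cochlea and 4.67 times in the vestibular organs, and epithelial cells, mesenchyme and endothelium overlapped with each other.

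Erbb3, the receptor that binds neuregulin and signals together with ErbB2, lies on the same chromosome (chr10:128567523-128589652, minus strand). Cochlear values were 25882.3 in neurons, 7182.1 in epithelial cells, 271.5 in mesenchyme and 236.5 in endothelium. Vestibular values were 17510.0, 5178.6, 156.5 and 910.0. Epithelial cells came after neurons in both organs, at a distance of 3.60 and 3.38 times, and held far more than mesenchyme, while mesenchyme and endothelium overlapped.

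The compact myelin gene Mbp (chr18:82475146-82585637, plus strand) encodes myelin basic protein, which binds the inner faces of the membrane together. It reached 25534.1 in cochlear neurons, against 1186.5 in epithelial cells, 120.6 in mesenchyme and 253.6 in endothelium. In the vestibular libraries it reached 14861.8 in neurons, 1657.8 in epithelial cells, 147.0 in mesenchyme and 695.4 in endothelium. No pair of cell types overlapped for Mbp, and the order was neurons, epithelial cells, endothelium and mesenchyme in both organs.

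Pmp22 (chr11:63128982-63159547, plus strand) encodes a membrane protein of compact myelin whose gene dose matters for peripheral nerve. Its cochlear values were 18962.9 in neurons, 203.1 in epithelial cells, 1857.1 in mesenchyme and 304.5 in endothelium. The vestibular values were 49103.9, 660.5, 3543.5 and 972.4. Mesenchyme was second in both organs, below neurons by 10.2 and 13.9 times, and endothelium and epithelial cells overlapped at the bottom.

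Fabp7 (chr10:57784881-57788450, plus strand) was at 32734.5 in cochlear neurons, 431.1 in epithelial cells, 419.9 in mesenchyme and 280.6 in endothelium. Vestibular neurons had 42828.1, epithelial cells 474.1, mesenchyme 1972.0 and endothelium 2289.8. The lower of the neuron libraries was 14.3 times the highest of the other 6. Among those 6, vestibular mesenchyme and vestibular endothelium stood above the other 4.

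S100b (chr10:76253853-76261159, plus strand) showed another pattern. Its cochlear values were 370.5 in neurons, 733.1 in epithelial cells, 848.1 in mesenchyme and 48.5 in endothelium, and its vestibular values were 1131.6, 2235.4, 3023.9 and 310.3. Within each organ mesenchyme came first and endothelium last, and the ranges of mesenchyme, epithelial cells and neurons overlapped. Neurons had 0.437 times the highest other value in the cochlea and 0.374 times in the vestibular organs. Mesenchyme also held the highest value of 7 of 10 melanocyte markers in each organ, and the melanin enzyme gene Dct was at 10562.1 in cochlear and 5602.8 in vestibular mesenchyme. The summed melanocyte markers were 19426 in cochlear and 12488 in vestibular mesenchyme, and Tyr was at 1842.9 and 883.0. Tyrp1, at 80.9 and 616.1, and Oca2, at 20 and 87.6, went the other way. In epithelial cells, second for S100b in each organ, the melanocyte sums were 1029.2 and 2694.1. In endothelium, last for S100b, they were 3812.9 and 4474.1. The part of melanocytes in the S100b values was not tested.

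Gfap (chr11:102887336-102900912, minus strand) was listed at 20, the lowest value of the table, in both neuron, both epithelial and both endothelial libraries. It was at 22.9 in cochlear and 47.6 in vestibular mesenchyme. No fold was formed for neurons, where it was listed at the lowest value in both organs.

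RefSeq promoter windows of 300 bases, 250 before and 50 after a gene start, were found for 5 of the 7 genes, 12 windows in all. Windows are shown for a gene high in the neuron fraction (Fabp7), for the myelin regulator that was also high there (Egr2) and for the gene at the lowest value (Gfap), all from GRCm38.p6 and written 5′ to 3′ on the strand of the gene. Capitals mark GTGGGCG, an EGR motif, here on the opposite strand as CGCCCAC. Fabp7 is chr10:57784673-57784972 (plus strand), Egr2 is the first of its windows at chr10:67535249-67535548 (plus strand), and Gfap is chr11:102897151-102897450 (minus strand).
Fabp7: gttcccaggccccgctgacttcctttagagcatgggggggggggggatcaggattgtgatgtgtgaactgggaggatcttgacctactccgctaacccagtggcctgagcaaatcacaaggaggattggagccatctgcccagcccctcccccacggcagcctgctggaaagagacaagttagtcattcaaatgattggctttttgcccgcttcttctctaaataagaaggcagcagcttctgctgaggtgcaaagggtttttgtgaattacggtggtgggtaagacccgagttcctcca
Egr2: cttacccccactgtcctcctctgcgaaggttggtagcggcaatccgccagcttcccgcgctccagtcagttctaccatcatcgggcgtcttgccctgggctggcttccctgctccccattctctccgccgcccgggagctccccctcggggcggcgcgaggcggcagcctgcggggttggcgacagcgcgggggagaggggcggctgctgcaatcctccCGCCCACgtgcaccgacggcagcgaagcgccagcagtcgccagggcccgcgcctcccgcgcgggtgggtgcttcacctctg
Gfap: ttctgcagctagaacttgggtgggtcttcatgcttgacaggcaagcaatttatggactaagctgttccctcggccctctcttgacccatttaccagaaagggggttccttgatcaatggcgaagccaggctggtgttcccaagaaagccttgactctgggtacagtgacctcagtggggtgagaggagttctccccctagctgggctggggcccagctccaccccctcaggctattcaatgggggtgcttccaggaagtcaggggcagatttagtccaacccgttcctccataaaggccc
The EGR motif was in 1 of the 12 windows, that of Egr2, and in 7.97% of 32851 windows in the mouse table. The SOX motifs ACAAAG and ACAATG, searched on both strands, were in none of the 12, against 18.7% and 12.6% of all windows. By gene these shares were 21.0% and 14.3%, and 8.99% for the EGR motif. The 12 windows come from 5 genes, and some windows of Egr2 and of Pmp22 overlap each other, so they are not separate sequences. The motifs do not overlap each other, and these counts cover only the letters of each window.

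Differences of the neuron libraries from the mean of the other 3 cell types were tested with limma, fitting cell type and organ to log2(value + 1) in all 8 libraries, with adjustment over 15275 genes. Each cell type has 1 library in each organ, so the p-values rest on how cochlear and vestibular libraries of a cell type differ beyond the shared organ shift. Fabp7, Mbp, Pmp22 and Erbb3 were called higher in neurons and no member was called lower, that is 4 of 7 and 0 of 7, where 2.3% of all genes were called higher and 1.07% lower. At an unadjusted p under 0.05, 5 were higher and 0 lower, against 10.1% and 10.4% of all genes. Over the 7 genes the median log2 difference was 4.67, against -0.04 over all genes.

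Fabp7 was higher in neurons by 5.76 on the log2 scale (SE 0.67, adjusted p = 0.0347). Mbp differed by 5.50 (SE 0.45, adjusted p = 0.0226). Pmp22 had the smallest error among the called genes, with a difference of 5.25 (SE 0.21, adjusted p = 0.0142). The receptor Erbb3 was higher by 4.67 (SE 0.61, adjusted p = 0.0427), with a 95% interval of 3.07 to 6.27. Egr2 did not pass, at 2.61 (95% interval 1.11 to 4.11, adjusted p = 0.0926), although each of its neuron libraries was at least 3.23 times every other library. For S100b the difference was 0.03 with an interval of -0.70 to 0.77 (adjusted p = 0.974), and for Gfap -0.23 with an interval of -0.89 to 0.42 (adjusted p = 0.683). When the fit was restricted to the 13355 genes that reached 100 in some library, Egr2 passed as well (adjusted p = 0.0308).

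Set against single cell types, different genes passed. Against epithelial cells Fabp7, Mbp and Pmp22 were called (background 5.0%), and Erbb3, with a log2 difference of 1.80 (SE 0.75), was not (adjusted p = 0.226). Against mesenchyme Mbp, Pmp22 and Erbb3 were called (background 1.51%), with Fabp7 at an adjusted p of 0.0551. Against vascular endothelium Fabp7, Mbp, Pmp22 and Erbb3 were called (background 2.67%), and so was S100b, higher in neurons by 2.39 on the log2 scale (SE 0.34, adjusted p = 0.0357). Calls depended on single libraries. Without either mesenchyme library or either neuron library no member was called, without either epithelial library only Pmp22 was, without cochlear endothelium 3 were and without vestibular endothelium 5 were. Without the cochlear or the vestibular mesenchyme library limma called 0 of the 15275 genes, with 2732 and 2556 at an unadjusted p under 0.05. The log2 differences stayed at 5.05 to 6.46 for Fabp7, 4.74 to 6.26 for Mbp, 5.14 to 5.36 for Pmp22, 4.24 to 5.09 for Erbb3 and 2.23 to 2.99 for Egr2 whichever library was left out.

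Related Schwann cell genes were counted in 5 lists, 49 genes in all, of which 28 were called higher in neurons and 0 lower, with a median log2 difference of 3.57. These lists were also chosen with earlier results known, so their counts are a description. None of the 49 genes was called when either mesenchyme library was left out. Of 14 other myelin genes, 12 were called higher (median 4.08). Mag, which lies at the contact of myelin and axon, had 707.1 and 526.9 in the neuron libraries and at most 28.1 in the others. Cldn19, a tight junction gene of myelin, had 4659.6 and 4297.4 there and at most 208.4 elsewhere (log2 difference 5.78, SE 0.56, adjusted p = 0.028). Gjb1 and Ncmap did not pass. The myelin list therefore lay in the neuron libraries together with Mbp and Pmp22, with 12 of 14 genes highest there in both organs. These 12 are not the same as the 12 called, since the exceptions here were Ncmap and Drp2. Drp2 was called against the mean of the other cell types. It had 725.1 in vestibular mesenchyme and 475.0 in vestibular neurons.

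Of 10 genes of Schwann cell precursors and immature Schwann cells, 8 were called higher (median 4.37). Dhh, a hedgehog ligand that Schwann cells send to the nerve sheath, had 4654.4 and 3204.9 in cochlear and vestibular neurons and at most 293.6 elsewhere (log2 difference 6.27, adjusted p = 0.0164). Ednrb, an endothelin receptor of the neural crest lineage, had 109100.4 and 98907.4 (5.84, adjusted p = 0.0208), and the adhesion gene Cdh19 had 2020.3 and 2521.1 (5.55, adjusted p = 0.028). Like Fabp7, these genes were far higher in the neuron libraries than in any other. Scn7a and Cdh2 were not called.

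Of 12 further Schwann cell transcription factors 10 were measured, and Sox2, Foxd3, Tfap2a and Zeb2 were called higher (median over the 10 of 3.17). Foxd3, a factor of neural crest and early glia, had 7120.8 and 2325.6 in the neuron libraries and at most 208.4 elsewhere (6.33, adjusted p = 0.032). Sox10, which acts upstream of Egr2 and Erbb3 in the Schwann cell lineage, had 18734.6 in cochlear and 10027.5 in vestibular neurons, with 7035.9 and 7999.0 in epithelial cells. It missed the threshold at 3.86 (adjusted p = 0.0553). Sox10 thus shared with Erbb3 a second place for epithelial cells in both organs. Jun, a factor of immature and injured Schwann cells, differed by 0.24 (adjusted p = 0.826).

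The pathway of the receptor Erbb3 was counted next. Among 9 neuregulin and ErbB genes 1 was called higher, the protease gene Adam17 (1.51, adjusted p = 0.048), 3 were higher at an unadjusted p under 0.05, and the median was 0.04. The estimate was above 0 for 5 of the 9. Erbb4 (-1.78), Nrg4 (-1.40) and Egfr (-1.24) lay below 0 and were not called. The partner receptor gene Erbb2 was highest in neurons in both organs, at 3744.4 and 2188.8, with a log2 difference of 0.89 (adjusted p = 0.0747). The ligand gene Nrg1 lay between 20 and 51.9 in all 8 libraries. Of 6 genes for matrix and adhesion receptors of Schwann cells, Itgb4, Itga6 and Dag1 were called (median 2.58). Itga6 is the gene of the sorting antigen CD49f, and the part of the sorting in its values was not tested. Itgb4 had 3189.9 in cochlear neurons and 1711.8 in cochlear epithelial cells, but 1873.0 and 3007.1 in the vestibular ones. The list's remaining 3 genes passed only at an unadjusted p under 0.05.

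Markers of other glia were counted in short lists, whose difference from the Schwann cell lists was not tested. Among satellite glia genes 1 of 4 was called higher, the potassium channel gene Kcnj10, with 7847.5 in cochlear and 6974.5 in vestibular neurons (4.97, adjusted p = 0.0465). The median of this list was -0.98. Glul (-0.81), Slc1a3 (-1.15) and Gja1 (-1.17) had estimates below 0 and were not called. Of 4 astrocyte genes none was higher and Aldh1l1 was called lower, by -0.68 (adjusted p = 0.0465), with values between 20 and 45.9. The water channel gene Aqp4 was at 20 in both neuron libraries. Of 8 listed oligodendrocyte genes 2 were measured, and none of these was called, also at an unadjusted p under 0.05. Olig1 was at 20 in all 8 libraries, so only Myrf could have been called. Within families, 4 of 10 measured S100 relatives of S100b were called higher in neurons and 0 lower (median 0.42). Of these 10 relatives, 5 had an estimate above 0. The 4 called were S100a4, S100a6, S100a8 and S100a9. S100a6 had 1089.4 and 1401.5 in the neuron libraries and at most 134.3 elsewhere (4.66, adjusted p = 0.0231). S100a8 and S100a9 reached at most 48.1 and 130.6. Egr1, an immediate early relative of Egr2, spanned 12716.3 to 41508.5 over the libraries with a difference of 0.21 (adjusted p = 0.858). Egr3 had its highest values in neurons in both organs, 2565.0 and 1159.9, but was not called (3.23, adjusted p = 0.107 in limma). Egr4, at 20 in both neuron libraries, was not called either (-1.28, adjusted p = 0.23 in limma). Genes of pericytes and smooth muscle were also called higher in neurons, 4 of 9, and their part in these results was not tested.

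**Figure D2:**
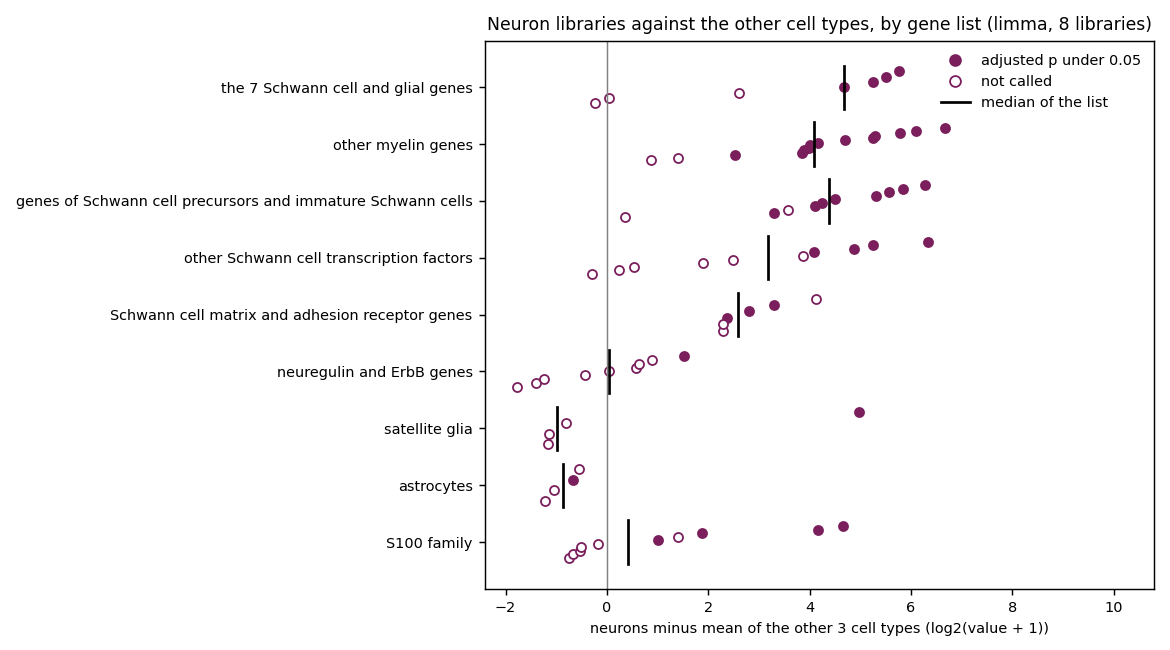
Difference of the neuron libraries from the mean of the other 3 cell types, on the log2(value + 1) scale, for each gene of 9 lists, with 1 point per gene, filled when the adjusted p from limma was under 0.05, and a bar at each list's median. The lists for myelin and for Schwann cell precursors center near 4, the neuregulin and ErbB list at 0.04.

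Between the neuron fractions of the cochlea and of the vestibular organs there was 1 library each, so ratios are given without a test. Fabp7 was 1.31 times higher in vestibular neurons, Egr2 1.44 times, Pmp22 2.59 times and S100b 3.05 times. Mbp was 1.72 times and Erbb3 1.48 times higher in cochlear neurons. No member was at least 2-fold higher in cochlear neurons (12.3% of all genes were), and 2 of 7, Pmp22 and S100b, were so in vestibular neurons (12.2% of all genes). At 1.5-fold it was 1 gene on the cochlear side, Mbp (23.9% of all genes), and the same 2 on the vestibular side (22.0%), and at 4-fold none on either side (1.83% and 2.95%). The median log2 difference, cochlear minus vestibular, was -0.39 over the members and 0.0 over all genes, and 4 of the 6 members above the lowest value lay within 2-fold. Among the other myelin genes, Prx, a gene of the myelin scaffold, was 3.68 times higher in cochlear neurons, and Pmp2, a fatty acid binding protein gene of myelin and a relative of Fabp7, was 5.62 times higher in vestibular ones. In all, 2 of 14 myelin genes were at least 2-fold higher in cochlear and 4 in vestibular neurons, where the shares of all genes were 12.3% and 12.2%.

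Markers of other cell types also differed between the neuron libraries. Of 21 neuronal markers 15 were at least 2-fold higher in cochlear neurons, as in Nefl (911.6 against 145.5) and Tubb3 (468.8 against 36.9), and 1 was in vestibular neurons. All 15 endothelial markers, 9 of 10 epithelial, 8 of 13 mesenchymal, 6 of 10 melanocyte and 6 of 9 pericyte and smooth muscle markers were at least 2-fold higher in vestibular neurons, and 1 of the mesenchymal markers was in cochlear neurons. The summed values rose from 2444.8 in cochlear to 17369 in vestibular neurons for endothelium and from 12934 to 161180 for pericytes and smooth muscle, where Rgs5 went from 6597.8 to 147259.9. For epithelium the sum rose from 646.6 to 4116.7 and for melanocytes from 3285.7 to 5033.5. For mesenchyme, the cell type in which S100b was highest and Pmp22 second, the sum was 206830 in cochlear and 143950 in vestibular neurons. Much of this sum was Col3a1, which went from 147259.9 to 64473.6. Of the 13 mesenchymal markers, 9 were higher in vestibular and 3 in cochlear neurons. Otor went from 2282.8 to 16808.4 and Coch from 867.3 to 8709.3. The part of these cells in the ratios of Pmp22 and S100b was not tested.

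**Figure D3:**
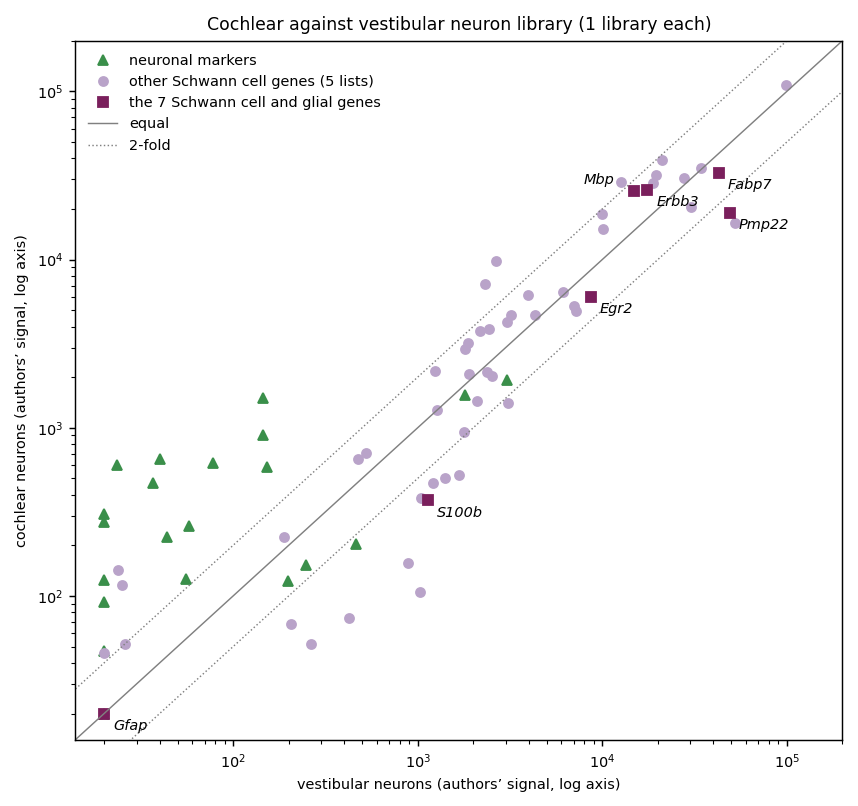
Value in the cochlear against the vestibular neuron library (authors' signal, log axes) for the 7 genes, the genes of 5 Schwann cell lists and neuronal markers, with 1 point per gene, a solid line at equality and dotted lines at 2-fold. Pmp22 and S100b fall beyond the 2-fold line on the vestibular side, Gfap sits at 20 on both axes, and 15 of 21 neuronal markers are at least 2-fold higher in cochlear neurons.

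The difference between the organs was then followed through the other cell types. Fabp7, Pmp22 and S100b were higher in the vestibular library of all 4 cell types, 3 of 7 against 5.53% of all genes. For Pmp22 the vestibular library was 3.25 times higher in epithelial cells, 1.91 in mesenchyme and 3.19 in endothelium. For S100b it was 3.05, 3.57 and 6.40 times higher. The ratio in neurons lay within these ranges for Pmp22 and at the lower end for S100b.

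For Fabp7 the vestibular library was 1.10 times higher in epithelial cells, 4.70 in mesenchyme and 8.16 in endothelium. Erbb3 was lower in the vestibular library in neurons, epithelial cells and mesenchyme, at 0.677, 0.721 and 0.576 times the cochlear value, and higher in endothelium, at 3.85 times. Mbp was lower in vestibular neurons and higher in the vestibular library of the other 3 cell types.

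In the model over all 8 libraries the organ term, cochlear minus vestibular, was -1.93 for S100b (SE 0.24, 95% interval -2.56 to -1.29, unadjusted p = 0.000702, adjusted p = 0.627 in limma). For Pmp22 it was -1.42 (SE 0.18, interval -1.90 to -0.94, adjusted p = 0.627). None of the 7 genes was called, as were none of the 15275 genes (background 0.0%), with 964 genes at an unadjusted p under 0.05, S100b and Pmp22 among them.

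The vestibular endothelial library was at least 2-fold above the cochlear one for 6 of the 7 genes, all but Gfap, where 18.9% of all genes were. The ratios ran from 2.74 for Mbp to 8.16 for Fabp7. In the same pair of libraries 9 of 10 epithelial and 12 of 13 mesenchymal markers were at least 2-fold higher in the vestibular library, as were 8 of 21 neuronal ones. None of 15 endothelial markers was, and 8 of them were at least 2-fold higher in the cochlear library (19.8% of all genes). The part of these cells in the endothelial values of the 7 genes was not tested.

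**Figure D4:**
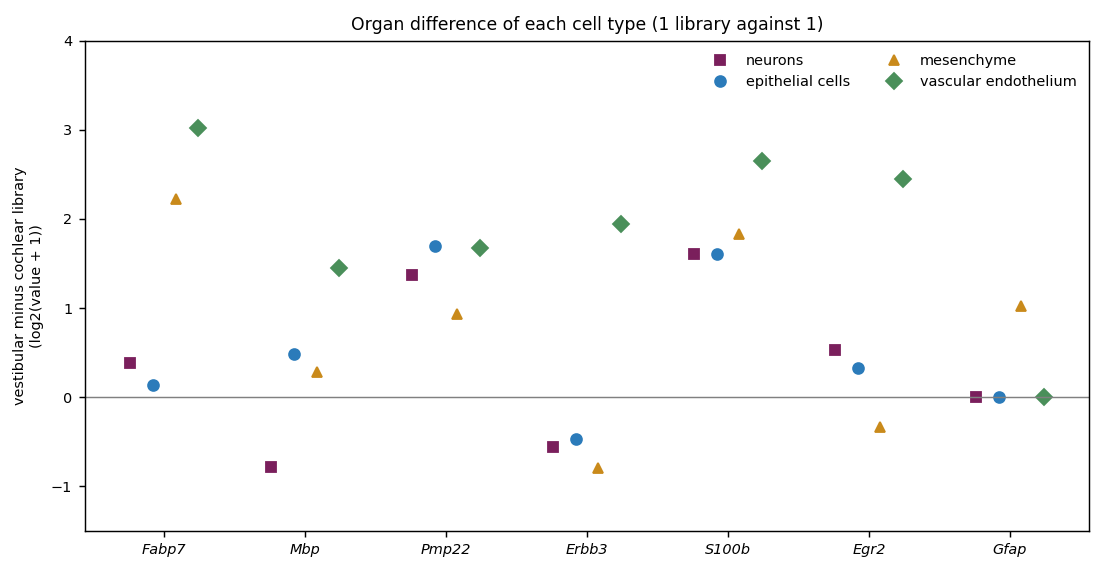
Vestibular minus cochlear library on the log2(value + 1) scale for each of the 7 genes, with 1 point per cell type and 1 library on each side. All 4 points lie above 0 for Fabp7, Pmp22 and S100b, and the endothelial point lies above 0 for every gene except Gfap.

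Genes whose values followed each member over the 8 libraries are given as a description, among genes that reached 100 in some library. The 8 points share the cell types, so any gene high in the neuron libraries scores well. Mbp was near to Fbxo7 (Pearson r = 0.989) and Lgi1 (0.9885), and Erbb3 to Nrcam (0.9933), Ttyh1 (0.9891) and Sox10 (0.9866). Fabp7 was nearest to Megf9 (0.9864), Depdc7 (0.9736) and Mocs2 (0.9649). For Pmp22 the genes were Dagla (0.9893), Gas2l3 (0.978) and Il1rap (0.9767), and for Egr2 Hspa12a (0.9752), B4galt6 (0.974) and Pag1 (0.9708).

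The gene nearest to S100b was Ppfibp2 (0.9814), with its highest values in mesenchyme, 177.5 in the cochlea and 486.3 in the vestibular organs, followed by Csrnp2 (0.9573) and Pfdn5 (0.952). No member was among the 3 nearest genes of another member. Gfap, which reached at most 47.6, was left out of this comparison.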

How the data were processed

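Sorted-cell mRNA-seq of 8 libraries was analysed, 1 for each cell type and organ. The authors deposited 1 signal value per gene and library, made from reads aligned to GRCm38 with TopHat 1.0.0 according to the submitters' processing notes. Sorted values are identical in all libraries and end at 20, and the steps of counting and scaling are not given in the sources used here. Neither depth nor counting error is known. Tests had been laid out for counts or per-million units, and the signal was handled like the second on the log2 scale. The labels and the methods give postnatal day 0, while the results of the study name a later day.

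Genes were matched by symbol and Ensembl identifier, of which 15030 of 15275 were in GENCODE vM21, the source of coordinates. Promoter windows came from RefSeq (GRCm38.p6). The members and lists were chosen with earlier results of these data known. Named genes are all members, up to 4 genes per list with the largest difference of neurons and up to 2 with the largest organ difference in neurons, close relatives of members, the 3 nearest genes of each member and markers that move with a result. Mag, Prx, Gjb1, Drp2, Cdh2, Jun and Nrg1 fall outside this rule and were chosen after their values were seen. Some genes that the rule takes are not reported here.

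limma 3.58.1 (R 4.3.3) was fitted with a mean-variance trend to log2(value + 1) with additive terms for cell type and for organ, which left 3 residual degrees of freedom, and p-values were adjusted over all genes (Benjamini-Hochberg, threshold 0.05). A fold change on this scale understates the change of genes near the lowest value. A gene at 20 in both libraries of a cell type also shows no spread between them. The p-values and calls of such genes, S100a4, Pmp2 and Aldh1l1 among them, rest partly on this lowest value. The 208 genes at the lowest value in all libraries entered the fit. Ratios and counts were computed with Python 3.11.15, numpy 2.4.6 and pandas 2.3.3. Alternatives were other pseudocounts (5 and 20), a filter for genes that reached 100, no trend, median-of-ratios scaling, no organ term, single cell types as reference, other folds and each library left out.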

Additional observations from a re-analysis of the deposited data

Results flagged for a closer look

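Mbp moved between the organs in neurons in the direction opposite to the other 3 cell types. Cochlear minus vestibular, its log2 difference was 0.78 in neurons, with 25534.1 against 14861.8, and the vestibular library was higher by 1.40 times in epithelial cells, 1.22 in mesenchyme and 2.74 in endothelium. Each of these is 1 library against 1, so the difference between the cell types was not tested.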

How the results depend on the processing

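Calls rest on 1 library per cell type and organ. No paired analysis was possible by replicate number, because each group has 1 library. The organ term is itself paired, since it compares cochlear and vestibular libraries within the 4 cell types. The count of 4 members called higher in neurons was 4 with pseudocounts of 5 and 20, without the trend, with median-of-ratios scaling and without the organ term, and 5 among genes that reached 100 in some library (below, the filter). With 1 library left out it ran from 0 to 5. For the other Schwann cell genes the counts then ran from 0 to 8 for myelin, 0 to 5 for precursors, 0 to 3 for transcription factors and 0 to 2 for matrix receptors, and the 1 neuregulin and ErbB gene was lost each time. Matrix receptors had 5 calls with the filter, and the neuregulin and ErbB genes 0 without the trend. Over all genes, 351 higher and 163 lower calls became 590 and 271 with the filter and 491 and 287 without the organ term. In the cochlear against vestibular neurons, members past the fold on the cochlear side went from 0 to 1 at 1.5-fold and to 2 (Fabp7 and Mbp) relative to the organ difference of the other cell types. On the vestibular side they went from 2 to 0 at 4-fold and to 0 relative to the other cell types.

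Directions that changed were those of differences that were small in the main fit. For S100b, neurons against the others became -0.0265 with a pseudocount of 20 and ran from -0.18 to 0.24 with 1 library left out. The organ term ran from -0.74 to 0.005 for Mbp and from -0.30 to 0.61 for Erbb3. For both genes its direction changed only when the cochlear or the vestibular endothelial library was left out. The cause of these changes was not tested. The adjusted p of Egr2 ran from 0.0371 to 0.459 with 1 library left out and from 0.0308 to 0.103 under the other alternatives.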

Other observations

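Relatives of Fabp7, Pmp22 and Gfap were fatty acid binding protein, epithelial membrane protein and type III intermediate filament genes. Of 3 measured relatives of Fabp7, 1 was called higher in neurons, Pmp2, at 157.8 in cochlear and 887.5 in vestibular neurons and at 20 in the 6 other libraries. Fabp5 was higher at an unadjusted p under 0.05, and both had their highest value in neurons in both organs. Of 3 relatives of Pmp22, 1 was called, Emp3, by 1.76 on the log2 scale (adjusted p = 0.048 in limma). It had 734.4 and 713.0 in neurons but 692.8 and 872.6 in mesenchyme. Emp2 was higher at an unadjusted p under 0.05, by 2.12, and Emp1 lower, by -1.83. None of 3 type III intermediate filament genes was called, as Gfap was not, with 1 higher at an unadjusted p under 0.05.

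Of 10 cell division genes, 3 were called higher in neurons and all 10 passed at an unadjusted p under 0.05. Of 10 macrophage genes none was called and 8 passed at an unadjusted p under 0.05, where 10.1% of all genes were higher.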
